A study of Mus musculus with 4 samples.

Results

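The transcripts of 10 cytokine genes known from antigen-presenting cells, Il12a, Il12b, Ebi3, Il27, Il15, Il18, Il1b, Tnf, Il6 and Tgfb1, were followed across the cell classes of tumour-draining lymph nodes. They were taken as a list of gene names, drawn up with earlier results of these data known, and all 10 were present among the 31053 genes of the deposited matrix. Antigen-presenting cells use such cytokines to steer the lymphocytes they meet: IL-12 and IL-18 favour interferon-gamma production, IL-15 maintains CD8 T and NK cells, IL-1 beta, IL-6 and TNF drive inflammation, and TGF-beta restrains T cells and helps regulatory T cells form. IL-12 is a heterodimer of the chains encoded by Il12a and Il12b, the Il12b chain also pairs with the Il23a chain in IL-23, and the Ebi3 chain pairs with the Il27 chain in IL-27 and with the Il12a chain in IL-35. IL-1 beta and IL-18 are made as precursors that caspase-1 cuts, and TGF-beta is released from a latent complex, so that a transcript level does not give the amount of active protein.

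All mice were C57BL/6J and carried tumours of B16F10, a melanoma line of this strain, in both thighs. In the treated group, 2 mice had the IDO pathway inhibitor indoximod in their water at 2 mg/ml, starting on day 9, with the BTK kinase inhibitor ibrutinib injected intraperitoneally at 350 ug per day. On day 10 they also received 150 mg/kg of cyclophosphamide, an alkylating drug. The 2 mice of the control group were left untreated. Inguinal nodes were taken 48 h after the cyclophosphamide and read with 3' version 3 reagents of 10x Genomics, which count unique molecular identifiers (UMIs), tags that mark single captured transcripts.

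Cell barcodes carry a suffix, 1 to 4, for their library, and the sources used here do not link a suffix to a mouse. Treated and control nodes are thus not compared here. Values are given for each library by itself, and differences between libraries can stem from treatment, mouse or preparation, which cannot be told apart. The libraries held between 39589629 and 53643414 UMIs over 30824 barcodes. Barcodes were kept above 300 detected genes (300 included) and up to 10% mitochondrial UMIs, which left 26096, and 86 barcode sequences occurred in 2 libraries each.

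Cells were put into classes by fixed marker genes, with at most 1 core marker of another lymphocyte lineage, and 20629 of the kept cells fell into a class. Of the other 5467 cells, 80.1% carried Cd3e, a gene of the T cell receptor complex, 27.5% carried the B cell gene Cd79a, and 800 were called doublets, of 927 in all kept barcodes. The classes with at least 20 cells were mature dendritic cell (DC)-like (423 cells), macrophage-like (151), monocyte-like (68), plasmacytoid DC-like (pDC, 54), type 1 conventional DC-like (cDC1, 35), NK-like (71), plasma cell-like (46), germinal centre (GC) B-like (273), B-like (9082), gamma-delta T-like (213), regulatory T-like (461), CD8 T-like (6830) and CD4 T-like (2890). Of 5 check markers outside each gate, all were at least 2-fold higher than in the other kept cells in 10 of the 13 classes, 4 were in plasma cell-like and CD8 T-like cells, and 2 were in CD4 T-like cells, which therefore rest mainly on Cd4 and the T cell receptor genes. Stromal and mast cell gates held 0 cells, and 11 cDC2-like cells were too few for a comparison. Gates were applied in a set order, which decided the class of cells that met more than 1 gate. Among these, 310 met the GC B and B gates, 46 the plasma cell and B gates, and 37 the plasma cell and GC B gates. The macrophage and monocyte gates shared 42 cells, the pDC and cDC2 gates 27, and the cDC1 and monocyte gates 10. The counts of cDC2-like, plasma cell-like and GC B-like cells thus depended on this order. GC B-like cells numbered 133, 129, 4 and 7 in libraries 1 to 4, and plasma cell-like cells 21, 24, 1 and 0.

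Levels are UMIs of a gene per 1000000 UMIs of the class (CPM), with the exact 95% Poisson interval in parentheses, and a share of cells has an exact 95% binomial interval where one is given. These intervals cover counting error only, and a count of 0 allows up to 3 counts. The chemistry reads the 3' end of transcripts, and levels are compared between classes for the same gene, not between genes.

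**Figure D1:**
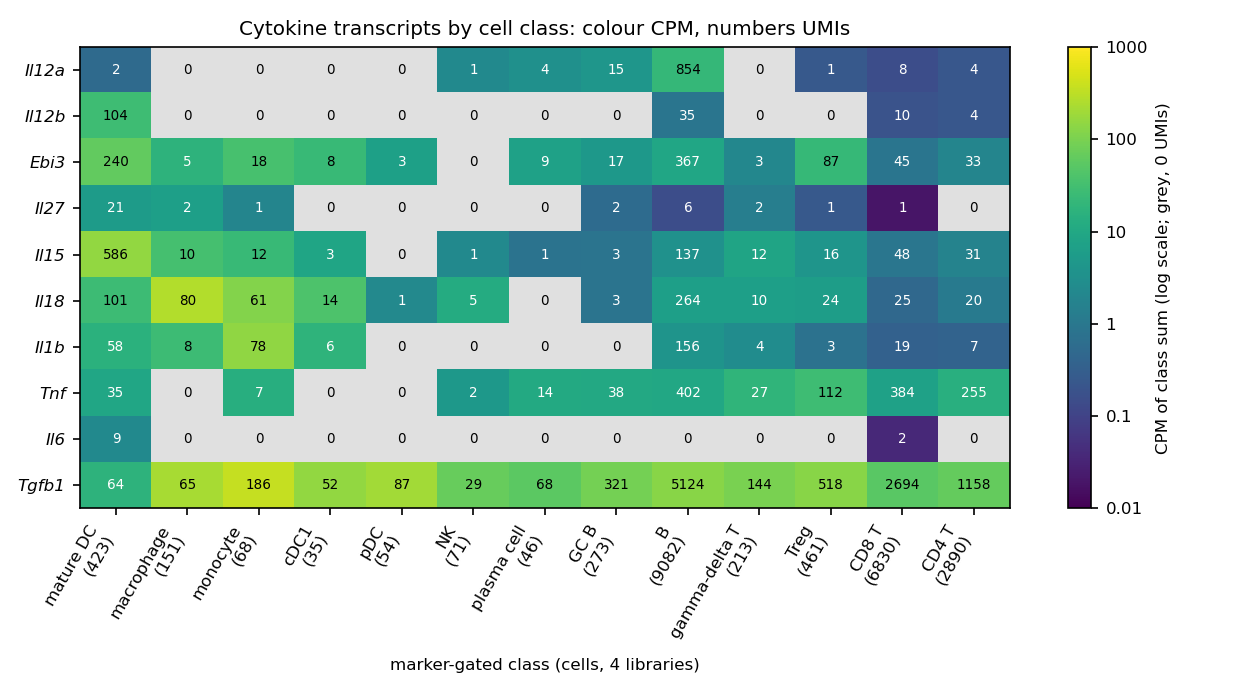
Heat map of the 10 cytokine genes (rows) in the 13 classes with at least 20 cells (columns, cells in parentheses). Colour is CPM of the class sum over 4 libraries on a log scale, grey marks 0 UMIs, and the numbers are UMIs: mature DC-like cells have 2 Il12a UMIs against 854 in B-like cells, and 104 Il12b UMIs against 35 in B-like cells.

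The IL-12 chains were found in different classes. Among classes with at least 20 cells, Il12a was highest in B-like cells, and Il12b and Ebi3 in mature DC-like cells. The promoters of these 3 genes are shown with that of Il18, which was high in macrophage-like and monocyte-like cells. They are the 250 bases before a RefSeq start in GRCm38.p6, read 5' to 3', on the plus strand, with matches to the motifs searched in capitals. In genome coordinates they are chr3:68690394-68690643 for Il12a, chr11:44399813-44400062 for Il12b, chr17:55952373-55952622 for Ebi3 and chr9:50554450-50554699 for Il18. Il12a has another RefSeq start, whose window, chr3:68691174-68691423, is not printed and held none of the motifs.
Il12a: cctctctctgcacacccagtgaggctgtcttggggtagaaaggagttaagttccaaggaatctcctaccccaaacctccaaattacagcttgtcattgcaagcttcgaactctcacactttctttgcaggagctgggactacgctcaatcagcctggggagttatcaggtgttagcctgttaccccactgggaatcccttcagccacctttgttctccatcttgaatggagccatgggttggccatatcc
Il12b: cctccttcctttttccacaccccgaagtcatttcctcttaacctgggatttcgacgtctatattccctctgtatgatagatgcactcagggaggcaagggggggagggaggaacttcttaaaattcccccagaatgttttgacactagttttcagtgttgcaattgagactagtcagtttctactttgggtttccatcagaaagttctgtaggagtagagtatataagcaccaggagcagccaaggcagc
Ebi3: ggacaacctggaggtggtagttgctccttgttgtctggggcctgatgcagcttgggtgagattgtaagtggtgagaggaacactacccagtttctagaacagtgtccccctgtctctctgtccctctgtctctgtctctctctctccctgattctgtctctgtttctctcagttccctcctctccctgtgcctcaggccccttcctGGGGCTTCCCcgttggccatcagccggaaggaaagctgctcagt
Il18: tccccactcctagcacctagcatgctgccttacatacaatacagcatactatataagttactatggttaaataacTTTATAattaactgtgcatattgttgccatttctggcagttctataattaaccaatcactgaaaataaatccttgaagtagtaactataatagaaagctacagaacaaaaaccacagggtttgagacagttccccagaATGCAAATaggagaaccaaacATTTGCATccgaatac

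Promoters were found in the RefSeq table for 8 of the 10 genes, and Il15 and Il27 were the others. Motifs were searched on both strands: the NF-kappaB consensus, an interferon-stimulated element (GAAA, any 2 bases, GAAA), an Ets-IRF composite (GGAA, any 2 bases, GAAA), the AP-1 site TGANTCA, the octamer ATGCAAAT and the TATA box TATAAA. Both of the GA-rich motifs can overlap each other, and a match of the NF-kappaB consensus often reads on both strands and was counted once. The capitals in Ebi3 are an NF-kappaB match, a motif held by 7.25% of all 32851 promoter windows of this length, and Il6 and Tgfb1 also held it. The capitals in Il18 are 2 octamers, held by 1.60% of windows, and a TATA box on the other strand, held by 12.4%. Il1b and Tnf held a TATA box, Il6 held an AP-1 site (6.75% of windows), and the windows of Il12a and Il12b held none of these letters. A match is a description of these bases and was not measured as a bound site.

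Il12a, which encodes the p35 chain and lies on chromosome 3 from 68690644 to 68698547 in mm10, was counted mainly in B-like cells. The B-like level was 21.4, 19.5, 21.2 and 22.4 CPM in libraries 1 to 4, and 21.3 CPM (19.9 to 22.7) over all, from 854 of the 1032 UMIs of the gene. All 4 libraries lay close together, and no B-like cell held more than 4 UMIs. The GC B-like level was 4.16 CPM (2.33 to 6.86). It was 5.97 CPM in library 1 and 2.74 CPM in library 2, and the few cells of libraries 3 and 4 had 0 UMIs. The ungated cells had 143 UMIs in 112 cells, or 3.68 CPM. Plasma cell-like cells had 3.17 CPM (0.863 to 8.11). Of these 46 cells, 37 also met the GC B gate. Their check marker Prdm1 was not 2-fold higher, at 7.12 CPM against 5.08 CPM in the other kept cells. CD4 T-like cells had 0.225 CPM and CD8 T-like cells 0.154 CPM.

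Il12a was rare in the cells best known for IL-12. Mature DC-like cells had 2 UMIs, both in a single cell of library 4, or 0.529 CPM (0.0641 to 1.91). Monocyte-like, macrophage-like, cDC1-like and pDC-like cells had 0 UMIs, which allows levels of up to 5.75, 10.1, 8.79 and 6.90 CPM. A UMI of Il12a was in 8.21% of B-like cells at a median depth of 3801.5 UMIs, and in 0.117% of CD8 T-like cells, which should lack it, at 7047.5 UMIs. With every cell thinned to 1000 UMIs the shares were 2.08% of 9012 B-like cells and 0 of 6826 CD8 T-like cells. Cells that carried the gate markers of a myeloid or dendritic class held 5 of the 854 UMIs in B-like cells, or 0.586%.

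Within the B-like class, Il12a was lower in cells with early response genes. The 251 B-like cells with at least 2 of the early genes Egr1, Egr2, Egr3 and Nr4a1, which antigen receptor signals induce, had 9.07, 6.88, 12.6 and 17.8 CPM of Il12a in libraries 1 to 4, against 21.8, 20.4, 21.6 and 22.5 CPM in the other 8831 cells. Every library was lower in the cells with early genes, at 10.9 CPM (6.47 to 17.3) from 18 UMIs in all against 21.7 (20.3 to 23.2) from 836 UMIs. The 231 B-like cells with at least 2 of the marginal zone markers Fcrl5, S1pr3, Dtx1 and Cd9 had 2.11, 9.17, 17.0 and 18.1 CPM, against 22.5, 19.9, 21.5 and 22.7 CPM in the rest. The share of cells with an Il12a UMI went the other way, at 10.4% with marginal zone markers and 8.16% without. With and without early genes this share was 6.77% and 8.26%. The part of depth in these values was not tested. These subsets, like those of T cells further on, were chosen after values had been seen, and no test was made of them. The median depths were 7730 UMIs with and 3772 UMIs without the marginal zone markers, and 4906 UMIs with and 3784 UMIs without the early genes.

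Il12b, which encodes the p40 chain shared by IL-12 and IL-23 and lies on chromosome 11 from 44400063 to 44414033, was counted mainly in mature DC-like cells. Their level was 14.3, 48.5, 11.2 and 35.5 CPM in libraries 1 to 4, or 27.5 CPM (22.5 to 33.3) from 104 UMIs in 35 of 423 cells. The gene was concentrated in few cells: 1 cell of library 4 held 28 UMIs, and without it the class level was 20.2 CPM and that of library 4 was 16.5 CPM. Monocyte-like, macrophage-like, cDC1-like and pDC-like cells had 0 UMIs, which allows up to the same levels as for Il12a.

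A UMI of Il12b was in 8.27% of mature DC-like cells at a median depth of 8309 UMIs and in 0.0732% of CD8 T-like cells at 7047.5 UMIs. B-like cells had 35 UMIs in 8 cells, and 34 of these UMIs were in 7 cells that also carried at least 3 mature DC markers, as did 43 of all 9082 B-like cells. Without lymphoid cells that carried myeloid markers the B-like level was 0.0257 CPM, against 0.872 CPM with them.

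Both IL-12 chains were found together in 1 of the 26096 kept cells, a B-like cell of library 3. Of the 35 mature DC-like cells with Il12b, 0 carried Il12a and 0 carried Il23a, the partner chain in IL-23, which was found in 1 mature DC-like cell. These counts say that co-detection was at most rare at this depth, not that no cell made both chains. Il12b-positive mature DC-like cells often carried other members: 30 of 35 carried Il15, against 56.2% of the Il12b-negative cells, and 15 of 35 carried Ebi3, against 23.7%. Their median depth was 10180 UMIs, against 8147 UMIs in the Il12b-negative cells, and the part of depth in these shares was not tested. Il12a and Ebi3, the chains of IL-35, were found together in 34 kept cells, 26 of them B-like. Among B-like cells, Ebi3 was in 3.485% of those with Il12a and in 3.407% of those without, at median depths of 4131 and 3777 UMIs.

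Ebi3, the beta chain of IL-27 and IL-35, was found in dendritic, regulatory T and B cells. Mature DC-like cells had 55.9, 79.8, 80.7 and 48.4 CPM in libraries 1 to 4, or 63.5 CPM (55.7 to 72.0). The 17 neutrophil-like cells, a class below the limit of 20 cells that was named after its values were seen, had 12 UMIs, or 181 CPM (93.7 to 317). Monocyte-like cells had 34.5 CPM (20.4 to 54.5), cDC1-like cells 23.4 (10.1 to 46.2) and macrophage-like cells 16.9 (5.48 to 39.4), and the intervals of these 3 classes overlap. Regulatory T-like cells had 23.6, 11.3, 23.8 and 27.3 CPM, or 22.0 CPM (17.7 to 27.2), and CD4 T-like cells had 1.85, 2.55, 1.97 and 1.21 CPM, or 1.86 CPM (1.28 to 2.61). The ranges of both T classes do not overlap. B-like cells had 9.14 CPM (8.23 to 10.1), with 7.25 to 11.3 CPM over the libraries.

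At a median depth of 8309 UMIs, 25.3% of mature DC-like cells had an Ebi3 UMI, as did 9.54% of regulatory T-like cells at 5669 UMIs and 0.234% of CD8 T-like cells at 7047.5 UMIs. Of 87 regulatory T-like UMIs, 4 were in cells with myeloid markers. The 64 regulatory T-like cells with at least 2 of the cell cycle genes Mki67, Top2a, Birc5 and Cdk1 had 40.7, 28.9, 33.4 and 37.9 CPM of Ebi3, against 17.8, 3.29, 15.1 and 18.7 CPM in the other 397 cells. Each library was higher in the cycling cells, at 35.1 CPM (26.3 to 45.7) in all against 13.7 (9.44 to 19.3), and their median depth was 20752.5 UMIs against 5071 UMIs. Among B-like cells, those with marginal zone markers had 35.9, 12.2, 15.1 and 22.0 CPM of Ebi3, against 7.76, 7.73, 6.80 and 10.6 CPM in the rest. Of these 231 cells 11 carried myeloid markers, and of the other 8851 cells 98 did.

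Il27, the alpha chain of IL-27, had 39 UMIs in 24 cells. Of these, 21 UMIs were in 10 mature DC-like cells, at 11.5, 4.69, 2.04 and 5.46 CPM in libraries 1 to 4, or 5.55 CPM (3.44 to 8.49). Of the 10 cells, 6 also carried Ebi3, against 24.5% of the mature DC-like cells without Il27, at median depths of 11456.5 and 8277 UMIs. B-like cells had 6 UMIs, all in cells with myeloid markers. Macrophage-like cells had 2 UMIs, both in 1 cell, or 6.75 CPM (0.817 to 24.4). Monocyte-like cells had 1 UMI, or 1.92 CPM (0.0485 to 10.7), and the 17 neutrophil-like cells had 1, or 15.1 CPM (0.383 to 84.2). These intervals overlap that of mature DC-like cells. Il27 lies on chromosome 7 from 126589010 to 126594941 and overlaps Apobr on the opposite strand, and 8 of the 24 cells with Il27 also carried Apobr. Whether reads were assigned by strand is not given in the sources used here.

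**Figure D2:**
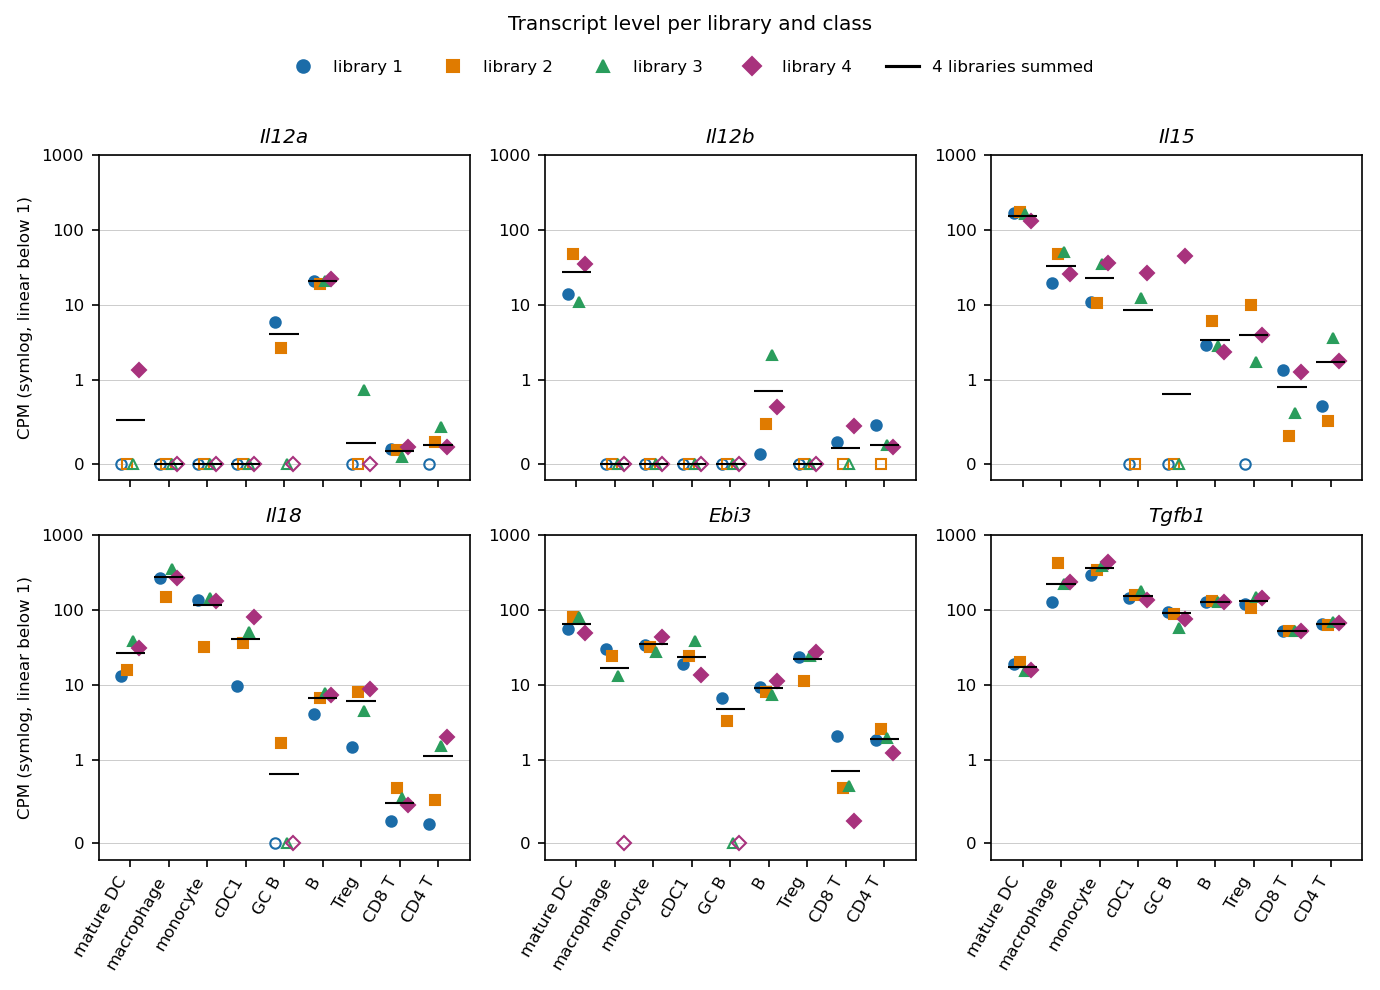
Level of 6 cytokine genes in 9 classes (x axis), as CPM on an axis that is linear below 1 and logarithmic above. Points are libraries 1 to 4, open where the library had 0 UMIs, and lines are the sum of 4 libraries: Il12a in B-like cells lies between 19.5 and 22.4 CPM in all of them, and Tgfb1 in mature DC-like cells between 15.3 and 20.3 CPM.

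Il15, which encodes a cytokine that cells hold on their surface with the receptor chain Il15ra for NK and CD8 T cells, was carried by 248 of 423 mature DC-like cells. Their level was 172, 174, 165 and 132 CPM in libraries 1 to 4, or 155 CPM (143 to 168), from 586 of 949 UMIs. Among the other classes with at least 20 cells, macrophage-like cells followed at 33.7 CPM (16.2 to 62.0) and monocyte-like cells at 23.0 CPM (11.9 to 40.2), with overlapping intervals. In cDC1-like cells the level was 8.79 CPM (1.81 to 25.7), and pDC-like cells had 0 UMIs, which allows up to 6.90 CPM. The 17 neutrophil-like cells had 3 UMIs, or 45.4 CPM (9.35 to 132.5).

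A UMI of Il15 was in 58.6% of mature DC-like cells (53.8% to 63.4%) and in 0.395% of CD8 T-like cells. With cells thinned to 1000 UMIs the shares were 12.9% and 0.0440%. B-like cells had 3.41 CPM, and 83 of their 137 UMIs were in cells with mature DC markers. Of the 248 mature DC-like cells with Il15, 185 also carried Il15ra, against 53.1% of those without Il15, with median depths of 10116.5 and 6076 UMIs. Il15 lies on chromosome 8 from 82331632 to 82403222.

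Among the caspase-1 substrates, Il18 was highest in macrophage-like cells and Il1b in neutrophil-like and monocyte-like cells. Macrophage-like cells had 266, 146, 350 and 260 CPM of Il18 in libraries 1 to 4, or 269.8 CPM (214 to 336). The monocyte-like level was 134, 31.9, 144 and 131 CPM, or 117 CPM (89.4 to 150.1). Macrophage-like cells were higher in every library, though library 2 rested on 6 UMIs in macrophage-like and 3 in monocyte-like cells. In cDC1-like cells the level was 41.0 CPM (22.4 to 68.8), and in B-like cells 6.58 CPM (5.81 to 7.42). The mature DC-like level of Il18 was 12.9, 15.6, 37.8 and 30.7 CPM in libraries 1 to 4, or 26.7 CPM (21.8 to 32.5), with libraries 3 and 4 the higher.

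Macrophage-like cells were shallow, at a median of 1118 UMIs, and 32.5% of them had an Il18 UMI, against 42.6% of monocyte-like cells at 8182 UMIs and 0.308% of CD8 T-like cells. After thinning, the shares were 15.9% of 82 macrophage-like cells (8.72% to 25.6%), with 69 shallower cells left out, and 14.3% of 63 monocyte-like cells (6.75% to 25.4%). Il18 lies on chromosome 9 from 50554827 to 50581840, overlaps Bco2 and Tex12 on the opposite strand, and shared 10 and 1 of its 549 cells with them.

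Il1b had 311 of its 728 UMIs in 17 neutrophil-like cells, of which 16 carried it. This class is below the limit of 20 cells and was singled out after its values were seen. Its level was 4701 CPM (4193 to 5253), and its 17 cells were spread as 1, 9, 4 and 3 over libraries 1 to 4. Monocyte-like cells had 78.3, 255, 89.7 and 218 CPM, or 149 CPM (118 to 187), with a UMI in 30.9% of cells, against 0.0439% of CD8 T-like cells. The macrophage-like level was 27.0 CPM (11.7 to 53.2). Mature DC-like cells had 14.3, 3.13, 18.4 and 19.1 CPM in libraries 1 to 4, or 15.3 CPM (11.7 to 19.8). B-like cells had 156 UMIs in 21 cells, and 127 of them were in 5 cells that carried at least 3 neutrophil markers. Without lymphoid cells with myeloid markers the B-like level was 0.206 CPM, against 3.89 CPM with them. Il1b lies on chromosome 2 from 129364570 to 129371139 and overlaps Il1bos, its antisense gene, which was found in 4 of the 127 cells with Il1b.

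Tnf, the gene of the inflammatory cytokine TNF, was highest in regulatory T-like cells and had 0 UMIs in several myeloid classes. Regulatory T-like cells had 38.3, 20.4, 29.9 and 27.3 CPM in libraries 1 to 4, or 28.4 CPM (23.4 to 34.1). In library 1 the 26 UMIs were in 6 cells, of which 1 held 12, and in library 4 1 cell held 13 of 34 UMIs. Gamma-delta T-like cells had 18.3 CPM (12.1 to 26.6), CD4 T-like cells 14.3 (12.6 to 16.2), with 12.5 to 15.7 CPM over the libraries, and GC B-like cells 10.5 (7.46 to 14.5). The level was 10.0 CPM (9.06 to 11.0) in B-like and 7.37 CPM (6.65 to 8.15) in CD8 T-like cells. Monocyte-like cells had 7 UMIs, or 13.4 CPM (5.39 to 27.6), and macrophage-like, cDC1-like and pDC-like cells had 0, which allows up to 10.1, 8.79 and 6.90 CPM. Mature DC-like cells had 7.17, 31.3, 5.11 and 3.41 CPM. The high value of library 2 rested on 1 cell with 17 UMIs, without which it was 4.86 CPM, and the class level was then 4.79 CPM against 9.26 CPM with it.

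Tnf went with receptor-induced early genes in each T cell class described here. CD4 T-like cells with at least 2 of Egr1, Egr2, Egr3 and Nr4a1 had 52.8, 77.0, 83.8 and 92.2 CPM of Tnf in libraries 1 to 4, against 10.1, 10.0, 12.2 and 12.1 CPM in those without. CD8 T-like cells had 25.2, 29.0, 57.7 and 42.2 CPM with them, against 3.81, 5.02, 7.66 and 7.43 CPM without. Regulatory T-like cells had 271, 46.5, 130.4 and 103 CPM with them, against 5.05, 15.0, 23.4 and 16.5 CPM without. The regulatory T-like cells with early genes numbered only 7, 9, 9 and 11 in libraries 1 to 4. The libraries with and without early genes did not overlap in any of the 3 classes, and the 36 regulatory T-like cells with early genes held 55 of the 112 UMIs of their class. Of these 36 cells 6 carried myeloid markers, and of the other 425 cells 9 did. The median depths with and without early genes were 5972 and 5746 UMIs in CD4 T-like, 7442.5 and 7028.5 UMIs in CD8 T-like and 7283 and 5551 UMIs in regulatory T-like cells. B-like cells with early genes had 18.1, 25.8, 5.03 and 20.7 CPM, against 10.2, 11.0, 9.84 and 8.35 CPM without, so library 3 went the other way. Among the ungated cells the level was 12.4 CPM (11.4 to 13.6) from 484 UMIs.

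**Figure D3:**
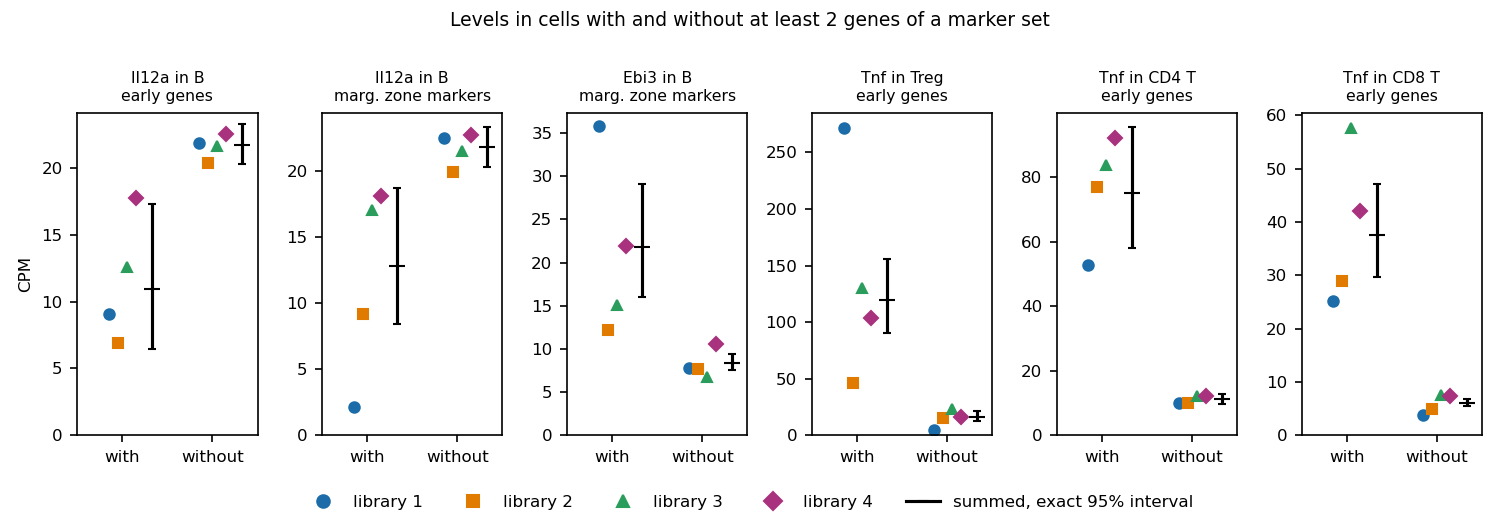
Level (y axis, CPM) of Il12a and Ebi3 in B-like cells and of Tnf in 3 T cell classes, in cells with (left) and without (right) at least 2 genes of the set named above each panel. Points are libraries 1 to 4 and bars the sum with its exact 95% Poisson interval: Il12a lies at 10.9 CPM with early genes against 21.7 CPM without, and Tnf in CD4 T-like cells at 75.2 CPM against 11.2 CPM.

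Il6, the gene of the pleiotropic cytokine IL-6, was barely detected, with 12 UMIs in 8 cells. Mature DC-like cells held 9 of these in 5 cells, 8 UMIs in library 3 and 1 in library 4, and 5 UMIs were in 1 cell. Their level was 2.38 CPM (1.09 to 4.52). B-like cells had 0 UMIs in 9082 cells, which allows up to 0.0747 CPM, and monocyte-like and macrophage-like cells had 0, which allows up to 5.75 and 10.1 CPM.

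Tgfb1, which encodes TGF-beta 1, had its lowest level in mature DC-like cells. Monocyte-like cells had 291, 340.1, 377 and 436 CPM in libraries 1 to 4, or 356 CPM (307 to 411). Macrophage-like cells had 219 CPM (169 to 279) and pDC-like cells 200.1 CPM (160.3 to 247), with overlapping intervals, and cDC1-like cells had 152 CPM (114 to 199.8). Regulatory T-like cells had 131 CPM (120.2 to 143) and B-like cells 128 CPM (124 to 131), and these overlap as well. The level was 65.2 CPM (61.5 to 69.0) among CD4 T-like and 51.7 CPM (49.8 to 53.7) among CD8 T-like cells. Mature DC-like cells had 18.7, 20.3, 15.3 and 15.7 CPM, or 16.9 CPM (13.03 to 21.6), below every other class with at least 20 cells. A UMI was in 12.5% of mature DC-like cells at a median of 8309 UMIs and in 57.1% of cDC1-like cells at 4709 UMIs. Thinned to 1000 UMIs, these shares were 2.43% (1.17% to 4.43%) and 14.3% (4.81% to 30.3%).

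**Figure D4:**
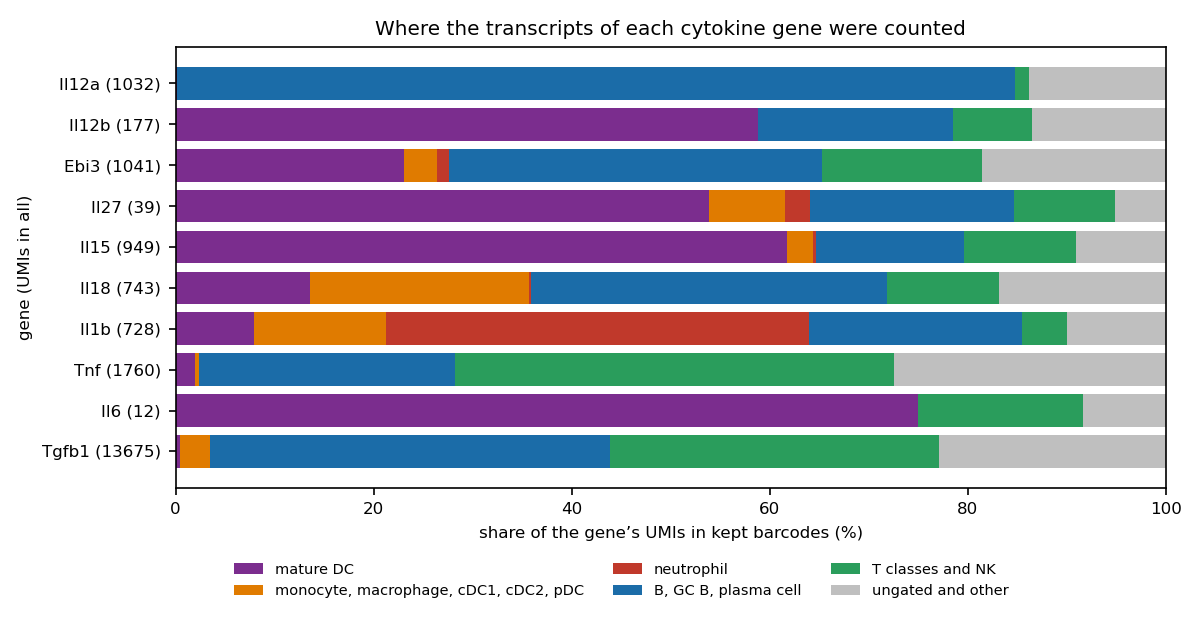
Share (x axis, percent) of the UMIs of each cytokine gene (y axis, UMIs in all kept barcodes in parentheses) that was counted in each set of classes. Mature DC-like cells hold 61.7% of Il15 and 58.8% of Il12b UMIs, neutrophil-like cells 42.7% of Il1b UMIs, and the B-lineage bar of Il12a holds 82.7% in B-like cells.

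The classes were then compared within each library over all genes. A gene was tested with at least 10 UMIs over both classes in at least 3 libraries, and called where each such library had a CPM ratio of 1.5-fold or more the same way. Calls follow this rule and involve no significance test. Ratios carry exact 95% counting intervals, and where 1 class had 0 UMIs the UMIs stand without a fold. A library with 0 UMIs in 1 class could count towards a call even where its depth could not exclude an equal level. Medians over genes, and ratios under other settings, were taken with 1 UMI added to each class. The comparisons share classes, so their results are not independent of each other. Lists of the genes around the cytokines, namely their receptors, decoys and antagonists, processing and release, partner cytokines, and sensing and transcription, were counted in the same way.

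In mature DC-like over B-like cells, 4 of 8 tested members were called higher and 2 lower, where 17.1% of all 11112 genes tested were called higher, 22.9% lower and 40.1% either way. Il15 was higher by 45.4-fold (37.6 to 55.1), Il12b by 31.5-fold (21.3 to 47.7), Ebi3 by 6.94-fold (5.87 to 8.19) and Il18 by 4.06-fold (3.20 to 5.13). Il12a was lower, at 0.0249 of the B-like level (0.00301 to 0.0901), and Tgfb1 at 0.133 (0.102 to 0.170). Il1b was not called, since library 2 had 3.13 CPM in mature DC-like and 3.42 CPM in B-like cells. Without library 2 it was called, at a log2 ratio of 2.17. Without lymphoid cells with myeloid markers it was called at 6.08, and the log2 ratio was 9.08 for Il12b, on 1 B-like UMI, and 7.04 for Il15. That of Il12b was 6.09 without library 3, and under the stricter cell filter it was 4.04 for Il12b and 4.66 for Il15. With 1 UMI added to each class, the values with all cells were 4.95 for Il12b and 5.50 for Il15. That of Il12a, -4.75 on this scale, was -5.59 without library 4 and -6.26 with 1 more gate marker. Tnf was not called. The members' median log2 ratio was 2.01, beside -0.16 for all genes tested. It lay below that of all genes in mature DC-like over monocyte-like cells (-0.67 against -0.23) and macrophage-like over monocyte-like cells (-0.69 against -0.11). So it did in GC B-like over B-like cells (-1.63 against -0.05) and NK-like over CD8 T-like cells (0.19 against 0.54). In the other comparisons it lay above. Of the receptors, 5 of 12 were higher and 3 lower, and of the sensing and transcription genes 6 of 15 were higher and 2 lower. Batf3, a transcription factor of cross-presenting DCs, had a log2 ratio of 6.36, Itgb8, an integrin chain that activates latent TGF-beta, 5.47, and Il15ra 5.01. Ltb, the lymphotoxin beta gene, was lower at -4.97, the RNA sensor gene Tlr7 at -5.20, and the lipopolysaccharide sensor gene Tlr4 had 0 against 268 UMIs.

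In mature DC-like over cDC1-like cells, 3 of 6 tested members were higher and 1 lower, where the calls over all 6548 tested genes were 17.5% higher and 9.80% lower. Il15 was higher by 17.6-fold (6.00 to 85.7) on 586 against 3 UMIs, and Ebi3 by 2.71-fold (1.35 to 6.34). Il12b had 104 against 0 UMIs and Tgfb1 was lower, at 0.111 of the cDC1-like level (0.0758 to 0.163). For Il12b, 0 cDC1-like UMIs allow up to 28.5, 38.1 and 40.2 CPM in libraries 1, 3 and 4. These bounds lie above the mature DC-like levels of 14.3, 11.2 and 35.5 CPM, so these libraries could not decide the call. Over all libraries, the lower end of the interval of its ratio was 2.50. The cDC1-like class held 10, 6, 11 and 8 cells in libraries 1 to 4, and under a stricter cell filter, or with cells of mixed lineage markers left out, Il12b fell below the UMI minimum and was not tested. Its log2 ratio was then 3.25 and 2.67, against 3.24 with all cells. Without library 4 the log2 ratio of Il15 was 4.50, against 3.73 with all libraries, and without library 2 or 4 that of Il12b was 2.61. Among list genes, the NF-kappaB gene Relb was higher at a log2 ratio of 4.86, Il15ra at 5.05, Tnfaip3, an inhibitor of NF-kappaB signalling, at 4.29 and the TNF receptor gene Tnfrsf1b at 3.55, while Itgb8 had 138 against 0 UMIs and Csf1, a macrophage growth factor gene, 110 against 0. Relb is one of the markers used to check the mature DC class.

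In mature DC-like over monocyte-like cells, 2 of 6 tested members were higher and 3 lower, where the calls over all 6932 tested genes were 12.2% higher and 14.5% lower (26.8% either way). Il15 was higher by 6.74-fold (3.83 to 13.1), and Il12b had 104 against 0 UMIs. For Il12b, 0 monocyte-like UMIs allow up to 16.8 and 26.9 CPM in libraries 1 and 3. The mature DC-like levels there were 14.3 and 11.2 CPM, so these libraries could not decide the call. Over all libraries, the lower end of the interval of its ratio was 3.82. Il18 was lower, at 0.229 of the monocyte-like level (0.165 to 0.319), Il1b at 0.103 (0.0718 to 0.146) and Tgfb1 at 0.0475 (0.0352 to 0.0634). Ebi3 was not called at 1.84-fold (1.14 to 3.16), though it was without library 4, at a log2 ratio of 1.12. Il12b was not tested under the same settings as over cDC1-like cells, where its log2 ratio was 3.82 and 3.08, against 3.86 with all cells. Without library 4 it was called at 3.14. The Il18 call was lost with 1 more gate marker and under trimmed-mean (TMM) scaling, at log2 ratios of -2.08 and -1.73, against -2.14. Of the release genes 5 of 9 were lower and 1 higher, among them Nrros, which holds latent TGF-beta on myeloid cells, at a log2 ratio of -3.89, while Itgb8 was higher with 138 against 0 UMIs. The receptor genes Il6ra at -4.49 and Tnfrsf1a at -3.49, the adaptor gene Myd88 at -3.44 and Tlr7 at -6.80 were lower as well.

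In monocyte-like over B-like cells, 5 of 7 tested members were higher and 1 lower, where the calls over all 10801 tested genes were 12.3% higher and 16.6% lower. Il1b was higher by 38.4-fold (28.9 to 50.8), Il18 by 17.8-fold (13.2 to 23.5), Il15 by 6.73-fold (3.40 to 12.2), Ebi3 by 3.77-fold (2.21 to 6.04) and Tgfb1 by 2.79-fold (2.40 to 3.23). Il12a had 0 UMIs in monocyte-like and 854 in B-like cells. A 0 there allows up to 31.9 and 26.9 CPM in libraries 2 and 3. The B-like levels of Il12a were 19.5 and 21.2 CPM, so these libraries could not decide the call. In library 4 the bound of 21.8 CPM lay close to the B-like 22.4 CPM. Over all libraries, the upper end of the interval of its ratio was 0.333. The Il15 call, on 12 against 137 UMIs, was lost under the stricter cell filter at a log2 ratio of 1.98 and under TMM scaling at 2.35, against 2.86, and at a 2-fold threshold. Without cells of mixed lineage markers the calls of Il15 and Ebi3 were lost while their log2 ratios were no smaller, at 3.06 and 2.11, against 2.86 and 1.99. Without lymphoid cells with myeloid markers the log2 ratio was 9.35 for Il1b, against 5.27, and 4.40 for Il15. That of Il1b was 6.28 without library 3, 4.53 without library 4 and 4.24 under the stricter cell filter. Il1rn, the IL-1 receptor antagonist gene, was higher at a log2 ratio of 7.82, Tnfrsf1a at 6.83, Tnfrsf1b at 4.87, Il6ra at 4.10, Batf3 at 3.91 and the lipopeptide sensor gene Tlr2 at 3.71. Of the decoys and antagonists 5 of 7 were higher and 2 lower.

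In macrophage-like over monocyte-like cells, 1 of 3 tested members was higher and 1 lower, where the calls over all 2750 tested genes were 6.84% higher and 19.9% either way. The gates of these classes overlapped: 42 cells met both, and the set order of gates decided their class. Il18 was higher by 2.31-fold (1.63 to 3.28) and Il1b lower, at 0.181 of the monocyte-like level (0.0753 to 0.374). Il18 rested on the minimum of 3 libraries, and was not tested without library 1, 3 or 4, at log2 ratios of 1.32, 1.14 and 1.28. The count of called members was 1 in these cases and without the barcodes whose sequence occurs in 2 libraries. Of the sensing and transcription genes 7 of 11 were lower, with the transcription factor genes Irf5 at a log2 ratio of -2.33 and Rel at -2.25 and the receptor gene Cd40 at -2.23. Il6ra at -2.10, Ltb at -1.79 and Adam17, the protease that sheds TNF, at -1.59 were lower too.

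Among B cells, GC B-like over B-like cells had 3 of 7 tested members lower and 0 higher, where the calls over all 10859 tested genes were 15.2% lower and 6.64% higher. Il12a was lower, at 0.196 of the B-like level (0.109 to 0.324), and Il18 at 0.126 (0.0259 to 0.374). In libraries 3 and 4, with 4 and 7 GC B-like cells, both genes had 0 GC B-like UMIs. A 0 there allows up to 84.2 and 45.0 CPM, above the B-like levels of both genes, so these libraries could not decide a call. The calls of Il12a and Il18 thus rest on libraries 1 and 2. Il1b had 0 against 156 UMIs, and its call counted library 3, which could not decide it either. Without lymphoid cells with myeloid markers it was not tested, at a log2 ratio of 0.28. That sign came from the 1 UMI added to each class, since GC B-like cells had 0 UMIs. Nor was Il1b tested without library 1, 2 or 3, at -2.99, -2.85 and -2.95, or with 1 more gate marker, at -3.84, against -3.82 with all cells. The log2 ratio of Il18 was -1.82 without library 1 and -3.55 without library 2, against -2.57, and it was called lower in both. Tlr7 was lower at -4.40, Il27ra, the IL-27 receptor gene, at -3.81, Csf1 at -3.66, Nrros at -3.08, Tlr2 at -2.94 and Il2rg, the common gamma chain of the IL-15 receptor, at -1.99.

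In B-like over CD4 T-like cells, 5 of 7 tested members were higher and 0 lower, where the calls over all 11458 tested genes were 14.2% higher and 11.0% lower. Besides Il12a, with 854 against 4 UMIs, Il18 was higher by 5.85-fold (3.71 to 9.73), Ebi3 by 4.92-fold (3.44 to 7.26) and Tgfb1 by 1.96-fold (1.84 to 2.09). Il1b was higher by 9.87-fold (4.68 to 24.9), and fell below the UMI minimum without library 1, 2 or 3, at log2 ratios of 2.79, 3.00 and 3.25, against 3.12. It was not tested either with 1 more gate marker, or without lymphoid cells with myeloid markers, at 1.00. Of the receptors 8 of 15 were lower and 0 higher, among them Tgfbr3 at a log2 ratio of -6.79 and Il18r1 at -4.28. Of the sensing and transcription genes 9 of 15 were higher and 0 lower, among them Irf8 at 4.93, Cd40 at 4.77, Irf5 at 4.49 and the DNA sensor gene Tlr9, with 106 against 0 UMIs.

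In regulatory T-like over CD4 T-like cells, 2 of 4 tested members were higher and 0 lower, where the calls over all 9994 tested genes were 9.78% higher and 2.15% lower. Ebi3 was higher by 11.9-fold (7.87 to 18.3) and Tgfb1 by 2.01-fold (1.81 to 2.24), and Tgfb1 was not called under TMM scaling. Tnf was 1.98-fold higher over all (1.57 to 2.48) but was not called. It was called without library 2, without shared barcode sequences and under the stricter cell filter. Lrrc32, which displays latent TGF-beta on regulatory T cells, was higher at a log2 ratio of 4.84, Il1r2, a decoy receptor of IL-1, at 4.74, Itgb8 at 3.29, and the receptor genes Il2rb at 2.89, Il12rb1 at 2.86 and Tnfrsf1b at 2.40.

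In NK-like over CD8 T-like cells, 0 of 2 tested members, Tnf and Tgfb1, were called by this rule, where the calls over all 10910 tested genes were 6.47% higher and 12.6% lower. Of the 16 receptors tested 4 were higher and 4 lower. Il12rb2 was higher at a log2 ratio of 6.18 and Il18rap at 4.62, while Il6ra had 0 against 3476 UMIs. Irf8 at 4.70, Casp1, the protease that cuts the IL-1 beta and IL-18 precursors, at 4.06 and Casp4 at 3.63 were higher as well.

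For 7 members with at least 100 UMIs, the genes most alike over the 13 classes were found by Pearson's r of log2(CPM + 10). They were Sema5a for Il12a (r = 0.98), Tnip2 for Ebi3 (0.94), Fnbp1l for Il15 (0.98), Cdc42ep4 for Il18 (0.97), Mefv for Il1b (0.99), Mtmr9 for Tnf (0.89) and Xiap for Tgfb1 (0.92). The points share libraries and differ in depth, and a gene found almost only in 1 class gives an r near 1 with any other such gene. The remaining members lie on chromosome 5 from 30013114 to 30019981 (Il6), chromosome 17 from 35199381 to 35202007 (Tnf) and from 55952640 to 55957022 (Ebi3, which overlaps Gm16712 on the opposite strand), and chromosome 7 from 25687002 to 25705077 (Tgfb1).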

How the data were processed

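Single cells of the nodes of 4 mice were measured, 2 in each group. The authors deposited 1 matrix of raw UMI counts per gene and barcode, without normalisation, made with cellranger 5.0.0 per the file headers, on build mm10 per the submitters' processing notes. Gene positions and promoter sequences came from GENCODE vM21 and RefSeq tables of the same build. Barcodes were filtered as stated, classes were assigned by fixed gates in a set order, and counts were summed per class and library. Doublets called by Scrublet in scanpy 1.11.5 (927 of the kept barcodes) stayed in and were left out in an alternative. The members, lists and gates were chosen with earlier results of these data known. Named genes are all members and, per comparison, up to 6 called list genes with the largest ratio after a prior of 1 count. The rule was tested on simulated data. The alternatives were a stricter cell filter (500 genes, 5% mitochondrial), 1 more gate marker, cells with any marker of another lymphocyte lineage left out (lineage purity), doublets left out, TMM scaling (edgeR 4.0.16, used for scaling only), a 2-fold threshold, a minimum of 5 UMIs and each library left out in turn. The software was R 4.3.3 for edgeR, and scipy 1.17.1, pandas 2.3.3, numpy 2.4.6 and, for plots, matplotlib 3.10.9 under Python 3.11.15 for the rest. The gene most alike to Il12b is not reported here.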

Additional observations from a re-analysis of the deposited data

How the results depend on the processing

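No paired analysis was possible because the mouse numbers in the labels could not be tied to the libraries. Of 120 counts of called members under an alternative, 109 stayed within 1.5 times the reported count, and 11, in 3 of the 9 comparisons, did not. In macrophage-like over monocyte-like cells the count of 2 was 1 with 1 more gate marker, 1 with lineage purity, 0 with the 2-fold threshold, 1 without shared barcode sequences, and between 1 and 3 with a library left out. In regulatory T-like over CD4 T-like cells the count of 2 was 1 with TMM scaling and 1 with the 2-fold threshold, and with a library left out it was between 2 and 3. In NK-like over CD8 T-like cells the count of 0 was 1 with a minimum of 5 UMIs (Ebi3), and with a library left out it was between 0 and 1 (Tnf, without library 4). Of 658 member ratios under an alternative, 609 kept their side of the call rule and 17 became called. Of 31 lost calls, 14 were tested and missed the rule and 17 fell below the UMI minimum. A ratio that was not called changed sign under 17 settings, for Tnf over B-like cells in 3 classes, Tnf and Tgfb1 in NK-like over CD8 T-like cells, and Il18 and Il1b in mature DC-like over cDC1-like cells. Of the called ratios 1 changed sign, Il1b in GC B-like over B-like cells, at 0.28 on the log2 scale without lymphoid cells that carried myeloid markers. That sign came from the 1 UMI added to each class, since GC B-like cells had 0 Il1b UMIs, so no reversal was observed. The cause of the other changes was not tested. TMM scaling moved the median log2 ratio of all genes to -0.26 against -0.16 in mature DC-like over B-like cells, to 0.33 against 0.02 in mature DC-like over cDC1-like cells, to 0.17 against -0.23 over monocyte-like cells, to -0.24 against 0.26 in monocyte-like over B-like cells, to -0.29 against -0.11 in macrophage-like over monocyte-like cells, to -0.17 against -0.05 in GC B-like over B-like cells, to -0.10 against 0.24 in regulatory T-like over CD4 T-like cells and to -0.10 against 0.54 in NK-like over CD8 T-like cells. The alternatives without lymphoid cells with myeloid markers, without shared barcode sequences, and with only libraries of at least 20 cells of both classes were chosen after seeing the data, and the last could not be fitted in 6 comparisons. Mature DC-like over cDC2-like cells was not run, with 11 cDC2-like cells. Depth limits most the classes with few UMIs in all, and a count of 0 allows up to 10.1 CPM in macrophage-like cells against 0.0747 CPM in B-like cells.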

Other observations

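The cell with the most Il12a UMIs was in no class. It held 14 Il12a UMIs among 118213 UMIs, in library 1, with 313 UMIs of Cxcl13, a chemokine of B cell follicles, 610 of Clu, 503 of Mfge8 and 60 of the complement receptor gene Cr2. Chosen after these values were seen, 9 kept cells had at least 20 UMIs of each of Cxcl13, Clu and Mfge8, and 3 of them carried Il12a, with 14, 2 and 2 UMIs. The cell with 2 UMIs in library 4 is the single mature DC-like cell with Il12a, and it held 444 UMIs of Cxcl13, 294 of Clu and 233 of Mfge8. The other 6 cells had 0 Il12a UMIs and between 1952 and 10146 UMIs in all. These are values of single cells, with no test.

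Another ungated cell, in library 2, held 15 Il12b UMIs among 3992 UMIs. It carried 0 of the 6 gate markers of mature DCs, 6 UMIs of Ccr7, 25 of Fcer1g and 19 of Cst3.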
